A study of Mus musculus with 6 samples.

Results

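Skeletal muscle taken at the end of 3 h of electrical pacing was compared with sham muscle from mice whose implanted pacer stayed inactive, collected at the matching time. This was the one comparison of the series in which pacing differed and the time of harvest did not. Each of the series' 6 groups (sham, and paced muscle at 0 h, 1 h, 3 h, 8 h and 24 h after pacing) had 1 array with 2 colours, and the second channel of every array held the same reference RNA from control muscle, called Pre. The mouse strain, age and sex, the muscle sampled, the pacing settings and the number of mice per RNA are not given in the labels used here. Both groups carried the implant, so the operation was shared and stimulation was not.

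Members were all genes with at least 1 probe of a single gene symbol that was measured, neither empty nor exactly 0, on both the sham and the 0 h array. They numbered 3590 of the 3939 genes with such a probe on the platform (91.1%), and 349 were not measured on both. A gene's value was the mean over its probes of the log2 difference, 0 h minus sham, and it stands beside its log2 ratio to Pre on each array. A log2 difference of 1 is 2-fold. Direction rests on reading the ratio as sample over Pre, which the labels make likely, but the dyes are not stated. With 1 array a group there was no replicate and no test, so "higher" and "lower" below describe these arrays alone. Where a gene had several probes, the probe SD or each probe's difference is given. Both cover spots hybridised with the same RNA, not mice.

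Contraction raises calcium in the muscle fibre, consumes ATP and glycogen, and is accompanied by adrenergic signalling through cyclic AMP, and each of these routes is known to switch on a small set of early genes. Muscle also answers to circulating glucocorticoids and to FoxO transcription factors, which raise genes for fuel switching (Pdk4), protein breakdown (Fbxo32 and Trim63) and restraint of growth signalling (Ddit4). Genes of the contractile apparatus and of the respiratory chain are among the most abundant messages in muscle.

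Immediately after pacing, 244 genes (6.8% of the 3590) were at least 2-fold from sham. Of these, 128 were higher (3.57%) and 116 were lower (3.23%). This slight excess of higher genes turned with quantile normalisation, which forces both arrays to the same distribution and gave 100 higher and 132 lower. The median difference over all genes was 0.05, with 54.6% of genes above sham and 45.4% below; against Pre, 50.1% were above and 49.9% below at 0 h. At 4-fold or more there were 4 higher and 8 lower genes, and at 3-fold or more 17 higher and 22 lower.

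The distance from sham often lay on the sham array. Robust SDs of the log2 ratios to Pre were 0.498 for sham and 0.292 for 0 h, and across probes the 2 arrays' ratios had a Pearson r of 0.185, which is a description since both carry the Pre channel. Among the 244 genes, the sham value was farther from Pre than the 0 h value in 159, and the 0 h value was farther in 85. The sham value alone was 2-fold from Pre in 79 of them, and 203 had sham and 0 h on opposite sides of Pre. The stricter count asked for a 2-fold distance from sham and, on the same side, from Pre, and 31 genes met it (0.864%): 20 higher (0.557%) and 11 lower (0.306%). Both conditions use the same 0 h value. By itself, 0 h was 2-fold from Pre in 76 of these genes (2.12%), 51 above (1.42%) and 25 below (0.696%), and sham was 2-fold from Pre in 138 (3.84%).

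**Figure D1:**
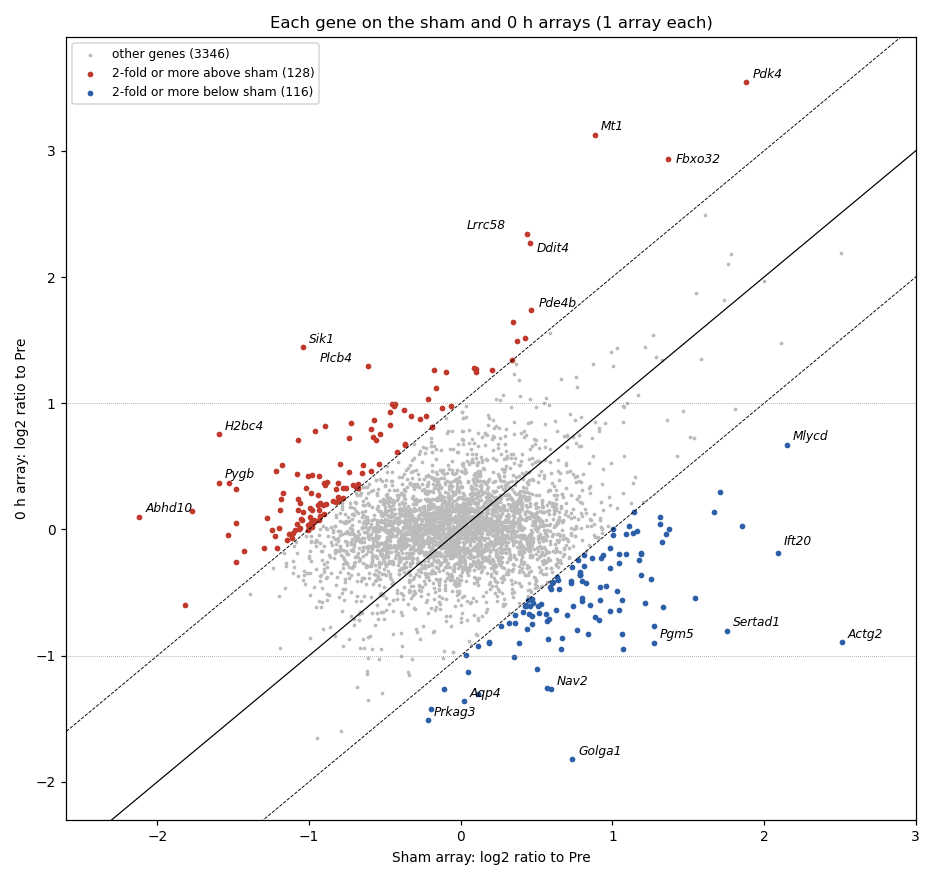
Each point is 1 of the 3590 genes, with its log2 ratio to Pre on the sham array (x axis) and on the 0 h array (y axis); the solid line marks equal values, dashed lines a 2-fold difference and dotted lines 2-fold from Pre at 0 h. The 128 red genes were 2-fold or more above sham and the 116 blue ones 2-fold or more below; Pdk4, Mt1 and Fbxo32 stand at the top, and many coloured points lie near 0 on the y axis and far from 0 on the x axis.

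Spot number mattered for how often a gene passed 2-fold. Of the 2606 genes with 1 probe, 224 passed (8.6%), against 20 of the 984 with 2 or more (2.03%). A mean over several spots varies less than 1 spot, so these shares are not on an equal footing. In 19 of those 20 (1.93% of the 984) all probes lay on the same side of sham, 11 higher (1.12%) and 8 lower (0.813%). The exception was Btg2, an early growth-arrest gene, whose probes differed from sham by -0.37 and 2.55.

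Genes known to respond to glucocorticoids had the highest median of the 42 gene lists described. All 14 members on the platform were measured, and 6 (42.9%, against 3.57% of all genes) were at least 2-fold above sham, 0 were 2-fold below (3.23% of all genes) and 11 were above sham at all. Their median difference was 0.96, against 0.05 over all genes, and with both arrays scaled to a common robust SD it was 1.59. The shares of 3.57% higher and 3.23% lower over all genes stand behind every list count that follows. Against Pre the 14 had a median of 1.43 at 0 h and 0.41 in sham. At 0 h 9 were at least 2-fold above Pre, as were 1.42% of all genes. Pdk4, Mt1, Fbxo32 and Serpina3n were already known to be high on these arrays when the list was made, so the count is not independent evidence of its direction. Many members also respond to fasting, other hormones or FoxO factors.

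Pdk4 codes for the kinase that shuts down pyruvate dehydrogenase and so spares glucose. Its log2 ratio to Pre was 1.88 in sham and 3.54 at 0 h, a difference of 1.66 or 3.16-fold (probe SD 0.46, 3 probes). The probes differed from sham by 1.18, 1.69 and 2.10, so all 3 were past 2-fold. No gene measured here stood higher against Pre at 0 h, and Pdk4 was already high in sham. With quantile normalisation its difference was 0.93, and with the common robust SD it was 3.29. Mt1, a metallothionein that binds zinc and copper, stood at 0.88 in sham and 3.13 at 0 h, a difference of 2.24 on 1 probe, or 4.73-fold (3.52 on the log2 scale with a common robust SD). A cDNA spot for Mt1 may also bind its close relative Mt2.

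Ddit4, which restrains mTOR complex signalling and so protein synthesis, went from 0.45 in sham to 2.27 at 0 h, a difference of 1.81 or 3.52-fold on 1 probe. The ubiquitin ligases of muscle wasting were both high. Fbxo32 (atrogin-1) stood at 1.36 in sham and 2.94 at 0 h, a difference of 1.57 or 2.98-fold on 1 probe (2.89 with a common robust SD). Trim63 (MuRF1) stood at 1.61 and 2.49, a difference of 0.88 that missed 2-fold (probe SD 0.68, 2 probes). Both ligase genes were therefore more than 2-fold above Pre in the sham muscle as well.

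Serpina3n, a secreted protease inhibitor of the acute phase, was at 0.34 in sham and 1.64 at 0 h, a difference of 1.30. Klf9, a transcription factor directly induced by the glucocorticoid receptor in many tissues, was at 0.21 and 1.26, a difference of 1.05. Just short of 2-fold were Tsc22d3 (the glucocorticoid-induced leucine zipper) at 0.97 and the stress protein gene Sesn1 at 0.94. Other well-known members showed no such difference: Per1 differed from sham by 0.10, Cebpd by 0.07, Glul by -0.15, Sgk1 by -0.17 (probe SD 1.01, 2 probes) and Fkbp5, which codes for a co-chaperone of the receptor, by -0.33. The list was thus split between 9 members with differences from 0.88 to 2.24 and 5 with differences from -0.33 to 0.10.

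**Figure D2:**
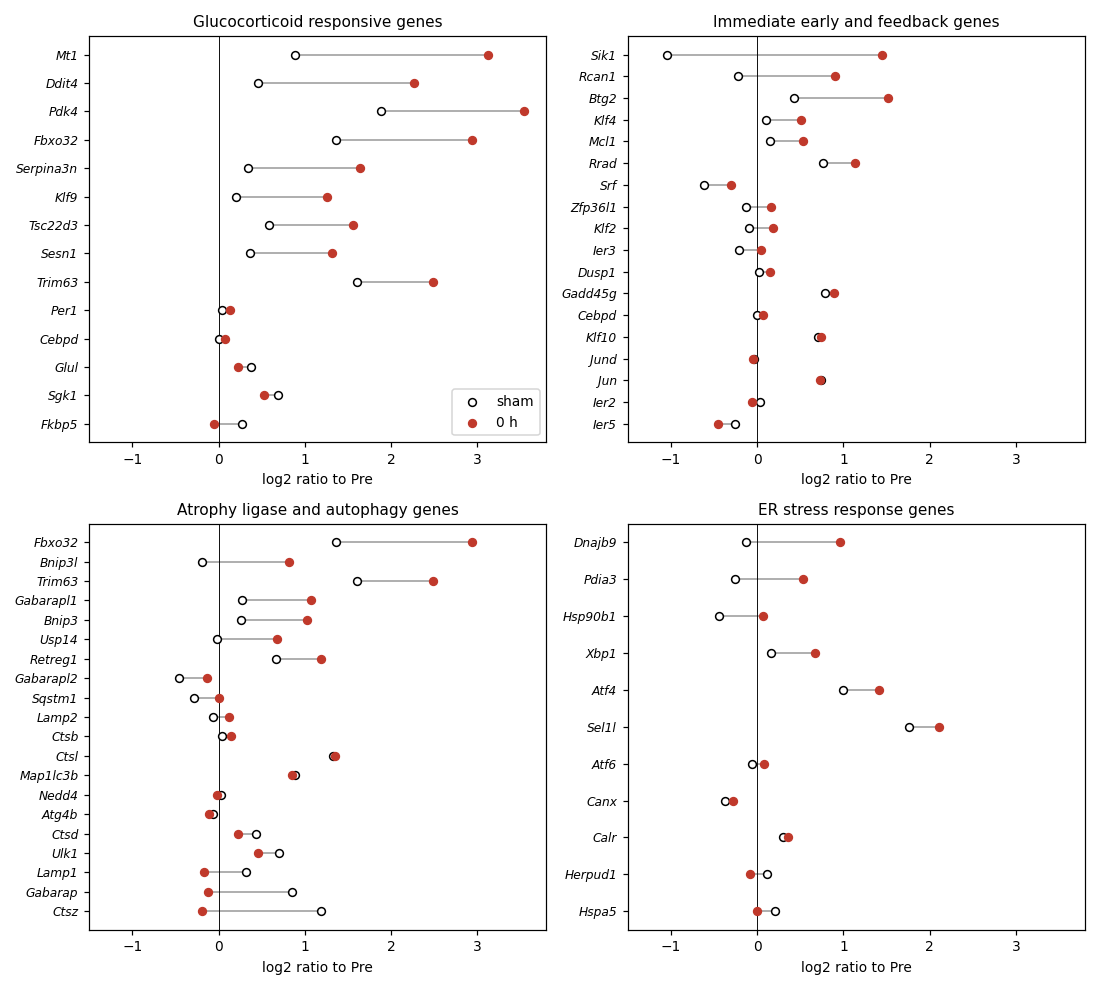
Log2 ratio to Pre on the sham array (open circles) and the 0 h array (filled circles), joined for each gene, in 4 gene lists, with 1 array per group. In the glucocorticoid list 9 of 14 genes show long bars to the right, with Pdk4 from 1.88 to 3.54, while in the other lists a few genes do so and most circles lie close together.

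The promoters of 3 members of this list are shown because they hold the letters of binding sites for the factors named above. RefSeq windows (GRCm38.p6) ran from 250 bases before the annotated start to 50 after it and are printed 5′ to 3′ in the gene's direction. Capitals mark a spaced half-site pair of the glucocorticoid response element (GRE, ACANNNTGT) in all 3, and also a FoxO site (TGTTTAC) in Trim63 and metal response element cores (TGCNCNC) in Mt1.
Trim63, chr4:134314870-134315169, strand +: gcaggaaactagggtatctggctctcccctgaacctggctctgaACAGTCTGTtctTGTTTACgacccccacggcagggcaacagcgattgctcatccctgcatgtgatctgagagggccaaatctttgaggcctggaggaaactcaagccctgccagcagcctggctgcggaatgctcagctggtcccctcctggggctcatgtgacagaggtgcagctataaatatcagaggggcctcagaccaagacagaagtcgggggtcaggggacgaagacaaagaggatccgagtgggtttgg
Mt1, chr8:94178839-94179138, strand +: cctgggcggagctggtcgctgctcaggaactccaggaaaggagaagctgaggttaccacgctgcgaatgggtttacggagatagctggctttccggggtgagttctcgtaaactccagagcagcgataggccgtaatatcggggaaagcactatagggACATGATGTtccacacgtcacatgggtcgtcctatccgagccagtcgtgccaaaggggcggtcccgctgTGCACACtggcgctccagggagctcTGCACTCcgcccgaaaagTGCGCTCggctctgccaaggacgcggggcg
Serpina3n, chr12:104406458-104406757, strand +: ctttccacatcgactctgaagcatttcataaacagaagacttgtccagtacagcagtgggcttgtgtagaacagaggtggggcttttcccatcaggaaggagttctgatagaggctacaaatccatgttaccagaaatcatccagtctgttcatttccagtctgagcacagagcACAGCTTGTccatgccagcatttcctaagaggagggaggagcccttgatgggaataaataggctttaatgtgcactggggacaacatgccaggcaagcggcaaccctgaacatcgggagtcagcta
In Trim63 the GRE letters begin at position -206 from the start and the FoxO letters at -194. In Mt1 the GRE letters begin at -92 and the metal response letters at -23, 3 and 21. In Serpina3n the GRE letters begin at -76.

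Motifs were searched on both strands, and the GRE letters read the same on both. Of the 14 list genes 12 had a window, with 21 windows in all. Fbxo32 and Cebpd had none and were not searched. The GRE letters were in 5 genes: Mt1, Serpina3n and Trim63, but also Glul and Sgk1, whose differences from sham were -0.15 and -0.17. Over all 32851 promoter windows 6.85% held them, and over those of genes measured here 4.2%. These shares are per window and the list counts are per gene. A gene with several windows, such as Sgk1 with 6, had more chances of a match. FoxO letters were found in Klf9, Sesn1 and Trim63, against 3.65% of all windows, and 51% of all windows held the metal response letters. Among genes past 2-fold outside the list, the GRE letters were also in windows of Rcan1, which was above sham. They were in windows of Plaat1, Ppm1f, Prkaca and Psme2b too, which were below sham. In all, 76 of the 100 genes past 2-fold that were singled out had a window. A match is a run of letters and not a shown binding site.

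Early response and feedback genes were mostly a little above sham. Of the 18 measured (of 22 on the platform), 14 were above sham, 3 were 2-fold higher and 0 were 2-fold lower, with a median difference of 0.27. Sik1, a salt-inducible kinase gene switched on by cyclic AMP and CREB, was the highest of all 3590 genes. It stood at -1.04 in sham and 1.44 at 0 h, a difference of 2.48 or 5.59-fold on 1 probe. It was thus 2-fold above Pre at 0 h and 2-fold below Pre in sham. Rcan1, a calcineurin target that feeds back to inhibit calcineurin, was at -0.23 in sham and 0.90 at 0 h. Its 2 probes differed from sham by 1.06 and 1.19, a mean of 1.13 (probe SD 0.09). It was not 2-fold from Pre. Btg2 averaged 1.09 (probe SD 2.07) from the discordant probes given above, and it was 0.95 with quantile normalisation and 1.71 with a common robust SD.

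Classical members of the early set showed little difference. Dusp1, a MAP kinase phosphatase, differed from sham by 0.13, Jun by -0.01 (probe SD 0.06, 2 probes), Ier2 by -0.09 and Klf10 by 0.04 (probe SD 0.85, 3 probes). Jun and Klf10 were above Pre on both arrays, Jun at 0.74 in sham and 0.73 at 0 h, and Klf10 at 0.70 and 0.74. Fos and Egr1 had no probe measured here and are not described.

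The CRE (TGACGTCA, bound by CREB) was in a window of 3 of the 13 early genes with a window: Rcan1, Btg2 and Dusp1. It was in 1.79% of all windows and 2.9% of windows of genes measured here. These shares are per window and the count is per gene. In the cyclic AMP and CREB list the CRE was in 0 of the 7 genes with a window (15 windows). Sik1 had no window, so its promoter was not searched. The Rcan1 window that held it is the one at the more downstream of its 2 annotated starts, and it is printed because both Rcan1 probes were 2-fold above sham. Capitals mark only the CRE, which begins at position -175, and the GRE letters at -147 are left in lower case.
Rcan1, chr16:92400029-92400328, strand -: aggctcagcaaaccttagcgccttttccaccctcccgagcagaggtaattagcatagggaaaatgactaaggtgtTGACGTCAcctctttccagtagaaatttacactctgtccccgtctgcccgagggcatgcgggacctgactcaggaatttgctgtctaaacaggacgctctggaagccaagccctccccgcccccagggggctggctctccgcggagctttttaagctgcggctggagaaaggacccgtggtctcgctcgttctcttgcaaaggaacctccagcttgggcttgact
Dusp1 held the same letters at -143 and differed from sham by 0.13. Whether the CRE plays a part in any of these differences was not tested.

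Among the 9 cyclic AMP and CREB genes the median difference was 0.22, with 8 above sham, 2 past 2-fold higher and 1 past 2-fold lower. Besides Sik1, Pde4b, a phosphodiesterase that breaks down cyclic AMP, stood at 0.46 in sham and 1.74 at 0 h, a difference of 1.28 or 2.42-fold (1.98 with a common robust SD). Prkaca, the catalytic subunit of protein kinase A, was at 0.45 in sham and -0.56 at 0 h, a difference of -1.01 that was -0.96 when probes were centred run by run. Creb1 differed by 0.24 and its coactivator Crtc2 by 0.10. Of 6 clock genes, which glucocorticoids and cyclic AMP can reset, 5 were above sham and 0 past 2-fold, at a median of 0.39; Rora was highest at 0.68 (probe SD 0.19, 2 probes).

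A few calcium handling genes were past 2-fold higher, with little shift of the list median. Of 29 measured, 4 were 2-fold higher and 0 lower, with a median of 0.15 and 16 above sham. The share higher was 13.8%, against 3.57% of all genes, and the median was 0.08 with a common robust SD or quantile normalisation. Plcb4, a phospholipase that makes the messenger IP3, stood at -0.61 in sham and 1.29 at 0 h, a difference of 1.90 or 3.74-fold. Itpr2, a receptor for IP3 that releases calcium, was at -0.44 and 1.00, a difference of 1.43 or 2.70-fold. Both rested on 1 probe, and both were above Pre at 0 h and below it in sham. Cacna1s, the voltage sensor of excitation-contraction coupling, was at -1.19 in sham and 0.16 at 0 h, a difference of 1.35 that lay mostly on the sham side. The calcium pump gene Atp2a1 of fast fibres differed by 0.70 (probe SD 0.50, 4 probes). Lower members included Camk2d at -0.90, a calcium-dependent kinase, and Myoz1, which tethers calcineurin at the Z-disc, at -0.49 (probe SD 0.26), with 11 of 11 probes below sham.

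Protein breakdown genes did not move as a block. Of 20 atrophy and autophagy genes, 12 were above sham, 2 were 2-fold higher and 1 was 2-fold lower. Their median was 0.14 (0.22 with a common robust SD). At 0 h 6 were 2-fold above Pre, as were 1.42% of all genes. Besides Fbxo32, Bnip3l, a mitophagy receptor of the outer mitochondrial membrane, was at -0.19 in sham and 0.81 at 0 h, a difference of 1.01 (probe SD 0.21, 2 probes) that was 0.99 when probes were centred run by run. Its relative Bnip3 differed by 0.77 (probe SD 0.06, 2 probes), reaching 1.02 above Pre. Gabarapl1, which coats autophagosomes, differed by 0.79, while its relative Gabarap differed by -0.97. Ctsz, a lysosomal protease, stood at 1.19 in sham and -0.20 at 0 h, a difference of -1.38. Ctsz was not measured when values shared between probes were set to missing. Among 30 genes named as proteasome subunits or partners 12 were above sham and 18 below, with a median of -0.07 that was 0.11 with a common robust SD; Psma1 was at 1.04 (probe SD 0.70, 2 probes; 0.94 with quantile normalisation) and Psmc5, an ATPase of the regulatory cap, at -1.48.

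Of 81 ubiquitin pathway genes 3 were 2-fold higher and 2 lower, with a median of 0.11. Usp16, a deubiquitinase acting on histone H2A, stood at -0.89 in sham and 0.35 at 0 h, a difference of 1.24 (probe SD 0.27, 2 probes). Anapc16, a subunit of the anaphase-promoting complex, stood at 0.10 and 1.27, a difference of 1.17, and was thus 2-fold from Pre as well. Rnf11 at -1.08 and Usp3 at -1.08 were the lower ones, Usp3 reaching -0.84 with a common robust SD.

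Most endoplasmic reticulum stress genes were above sham by small amounts. Of the 11 measured, 9 were above sham and 1 was past 2-fold, and the median was 0.34. That median was 0.14 with exact zeros kept, 0.16 with gene means of each array and 0.20 with quantile normalisation. Dnajb9, a chaperone partner in the reticulum lumen, was at -0.12 in sham and 0.96 at 0 h, a difference of 1.09. The disulphide isomerase gene Pdia3 differed by 0.79 and the transcription factor gene Xbp1 by 0.51, whereas the central chaperone gene Hspa5 differed by -0.20 (probe SD 0.26, 3 probes). Atf4, a translation-stress transcription factor, was high on both arrays, at 0.99 in sham and 1.41 at 0 h (difference 0.42, probe SD 0.23, 5 probes). Of 49 heat shock and chaperone genes 2 were 2-fold higher and 1 lower, with a median of 0.11 (0.18 with a common robust SD). The cytosolic Dnajb1, which helps Hsp70 and is a classic heat shock gene, went from -0.16 to 1.12, a difference of 1.28, while Hspe1, the mitochondrial chaperonin lid, went from 0.94 to -0.20, a difference of -1.14. Hspa8, the constitutive Hsp70, differed by 0.14 (probe SD 0.33, 11 probes) and was above Pre on both arrays, at 0.63 and 0.78.

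**Figure D3:**
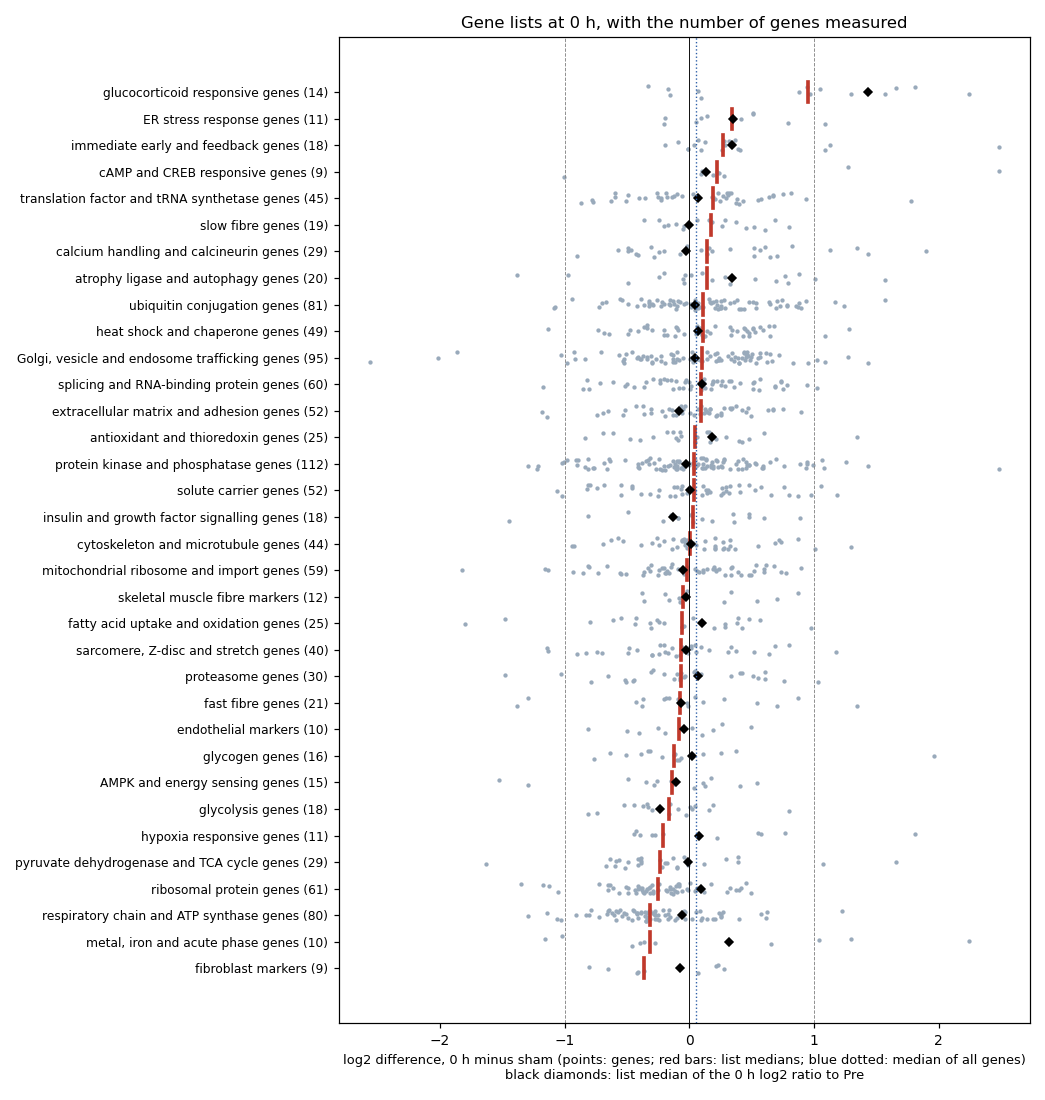
Log2 difference from sham at 0 h for each gene (points) in the lists with 9 or more measured genes, with the list median (red bars), the median of all genes (blue dotted line, 0.05), the 2-fold limits (dashed lines) and the list median of the 0 h ratio to Pre (black diamonds). The glucocorticoid list stands at 0.96; most other medians lie near 0, and for the respiratory chain (-0.31) and ribosomal proteins (-0.25) the red bar is left of the diamond.

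Mitochondrial energy lists sat slightly below sham, and most of that distance was on the sham array. The 80 respiratory chain and ATP synthase genes had a median difference of -0.31, with 62 below sham and 18 above, 4 past 2-fold lower and 1 past 2-fold higher. The 5 are 6.25% of the list, near the 6.8% of all genes, so their number sets nothing apart. Their median ratio to Pre was 0.25 in sham and -0.05 at 0 h. The 4 were Cox8a at -1.29, Uqcrb at -1.14, Ndufa8 at -1.06 and Atp5md at -1.03 (probe SD 0.65, 2 probes), subunits of complexes IV, III and I and of ATP synthase. Cox8a was -0.63 with exact zeros kept as values, and Atp5md was -0.98 with a common robust SD. Ndufaf7, an assembly factor of complex I, was the higher one at 1.23, from -1.07 in sham to 0.15 at 0 h. Genes with many spots gave smaller differences of the same sign: Atp5c1 of ATP synthase differed by -0.55 (probe SD 0.32), with 10 of 10 probes below sham, and Slc25a4, the ATP/ADP carrier, by -0.31 (probe SD 0.44), with 50 of 57 below.

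Genes of pyruvate dehydrogenase and the TCA cycle (29 measured) had 23 members below sham and 6 above, at a median of -0.23, with medians to Pre of 0.23 in sham and -0.01 at 0 h. Pdk4 was the outlier above. Pcx, which feeds carbon into the cycle as oxaloacetate, was at 1.07, from -0.81 to 0.26 (0.99 with a common robust SD), and Suclg1, a succinyl-CoA ligase subunit, at -1.63, from 0.91 to -0.72 (-0.79 with exact zeros kept). The subunits of the enzyme that Pdk4 inhibits were below sham: Pdha1 differed by -0.41 (probe SD 0.32, 3 probes) and Pdhb by -0.49. Lrpprc, which stabilises mitochondrial messenger RNA, stood at 0.57 in sham and -1.25 at 0 h, a difference of -1.82, and was the lowest of the 59 mitochondrial ribosome and import genes, whose median was -0.02.

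Fuel handling genes gave few differences. None of the 18 glycolysis genes was 2-fold from sham; their median was -0.16 (-0.24 with a common robust SD), with 12 below sham and 14 below Pre at 0 h. Pgam2, the muscle phosphoglycerate mutase, was among the lower at -0.52 (probe SD 0.56, 13 probes), and Aldoa, muscle aldolase, differed by 0.05 (probe SD 0.30, 42 probes). Of 16 glycogen genes 1 was 2-fold higher, Pygb, the brain-type phosphorylase, from -1.59 in sham to 0.37 at 0 h; the muscle enzyme Pygm differed by 0.11 (probe SD 0.37, 9 probes). Among 25 fatty acid genes 2 were 2-fold lower and 0 higher, with a median of -0.06. Mlycd, which removes malonyl-CoA and so frees fatty acid entry into mitochondria, was lower than in sham but still above Pre, at 2.15 in sham and 0.67 at 0 h, a difference of -1.48 (-0.80 with a common robust SD). Eci2, an enoyl-CoA isomerase, was at 1.22 and -0.59, a difference of -1.80, and the carnitine carrier gene Slc25a20 differed by 0.98.

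Of 15 AMPK and energy sensing genes 2 were 2-fold lower and 0 higher, with a median of -0.14. Prkag3, the gamma subunit of AMP-activated kinase specific to fast muscle, stood at -0.22 in sham and -1.51 at 0 h, a difference of -1.30, and was 2-fold from Pre as well. Esrrg, a nuclear receptor of oxidative fibres, was at 0.67 and -0.86, a difference of -1.53. The catalytic subunit gene Prkaa2 differed by 0.11 (probe SD 0.27, 2 probes).

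Neither fibre-type list had a median far from sham. Over 21 genes of fast fibres the median was -0.08 (from -0.20 to -0.03 under the alternatives), with 1 past 2-fold higher (Cacna1s) and 2 lower (Aqp4 and Prkag3). The fast fibre genes past 2-fold were 14.3% of the list, against 6.8% of all genes. Over 19 genes of slow fibres the median was 0.17 (0.08 with a common robust SD), with 0 past 2-fold. Aqp4, the water channel of the fast fibre membrane, had 2 probes at -1.38 and -1.39 (mean -1.38, probe SD 0.01); it was at 0.02 in sham and -1.36 at 0 h, and so was 2-fold below both references. Myh4, the fastest myosin heavy chain, had the largest difference in size of the 28 genes with 10 or more probes, at 0.87 (probe SD 0.81), with 28 of 33 probes above sham. It stood at -0.64 in sham and 0.23 at 0 h. Its spots may bind other myosins. Slow myosin Myh7 differed by -0.24 (probe SD 0.41, 6 probes).

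**Figure D4:**
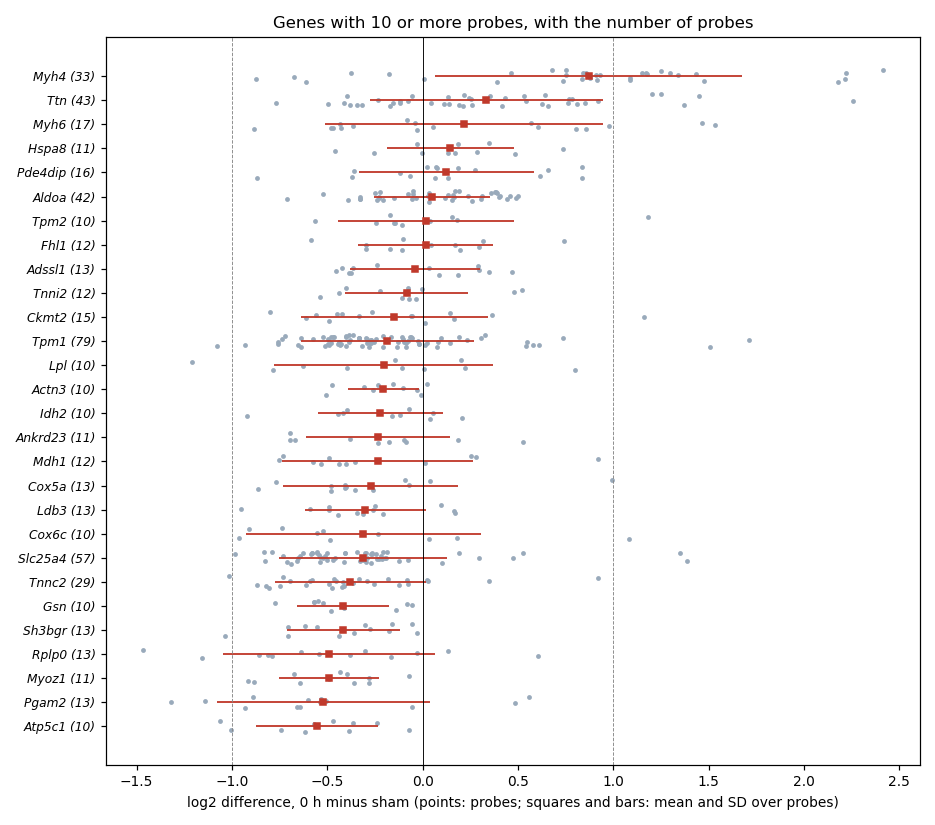
Log2 difference from sham at 0 h for each probe (points) of the 28 genes with 10 or more measured probes; squares and bars give the mean and SD over probes, which share the same RNA. Myh4 is at 0.87, and all probes of Atp5c1, Myoz1, Sh3bgr and Gsn lie below 0.

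The contractile frame showed single genes. Of 40 sarcomere and Z-disc genes 1 was 2-fold higher and 2 lower, with a median of -0.06. Sgcb, a sarcoglycan of the membrane complex around dystrophin, was at 1.17, from -0.81 to 0.37. Klhl41 and Klhl34 were both at -1.14; Klhl41 binds nebulin in the sarcomere. Titin (Ttn), the molecular spring of the sarcomere, differed by 0.34 (probe SD 0.61), with 29 of 43 probes above sham, and tropomyosin Tpm1 by -0.18 (probe SD 0.45), with 62 of 79 below. Mlip, a muscle lamin-interacting protein, was at 1.14 in sham and 0.14 at 0 h, just past 2-fold (probe SD 0.22, 2 probes; a difference of -0.72 with a common robust SD).

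Ribosomal protein genes resembled the respiratory chain list in form. Of 61 measured, 48 were below sham and 13 above, with a median of -0.25, 4 past 2-fold lower and 0 higher. Their median ratio to Pre was 0.30 in sham and 0.10 at 0 h, so at 0 h they were still slightly above Pre. Rpl31 differed by -1.18 (probe SD 0.17, 2 probes), Rps23 by -1.35, Rpl34 by -1.13 and Rps19 by -1.05, the last being -0.86 and Rpl34 -0.92 with a common robust SD. cDNA spots for these genes may also bind messages of related copies. Translation factors did not share this: the 45 had a median of 0.19, with Eif4ebp3, a brake on cap-dependent translation, from -1.07 to 0.71, a difference of 1.78 or 3.43-fold. Maf1, a repressor of RNA polymerase III, was at 1.17 in sham and -0.24 at 0 h, a difference of -1.42 (probe SD 1.01, 2 probes).

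Metal and iron genes went both ways. Of 10 measured, 3 were 2-fold higher (Mt1, Serpina3n and Stat3) and 2 lower (Tfrc and Slc11a2), with a median of -0.32. The median was -0.07 with a common robust SD and -0.09 with exact zeros kept. Stat3, the transcription factor downstream of interleukin 6, moved from -0.97 in sham to 0.08 at 0 h, a difference of 1.04 that was 0.87 with a common robust SD. Slc11a2, the divalent metal importer, was at 0.47 and -0.55, a difference of -1.02. Tfrc, the transferrin receptor, differed by -1.15 on the 1 probe measured on both arrays, from -0.11 to -1.27. With exact zeros kept, which adds its other probe, it was -0.09.

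Trafficking genes held the lowest gene of the stricter count. Of 95 measured, 4 were 2-fold higher and 4 lower, with a median of 0.10. The 8 are 8.42% of the list, against 6.8% of all genes. Golga1, a golgin of the trans-Golgi, stood at 0.74 in sham and -1.82 at 0 h, a difference of -2.56, and Ap1m1, a clathrin adaptor subunit, at 1.07 and -0.95, a difference of -2.01. On the higher side were 2 parts of the COPI coat of Golgi vesicles: Arcn1 (delta-COP), from -0.17 to 1.26, a difference of 1.43, and Copz2 (zeta-COP), from -0.56 to 0.71, a difference of 1.27. The COPI genes Copa, Copg1, Copz1 and Cope were not past 2-fold. By each array's own probes, Copa stood at -0.32 in sham and 0.14 at 0 h, Copg1 at -0.19 and 0.46, and Copz1 at -0.23 and 0.14. Cope went the other way, at 0.76 and 0.04. Trappc9 at 1.09 and Vps11 at 1.03 were each 0.26 with exact zeros kept. Syt4, a synaptotagmin, was lower at -1.03. Nav2, matched into this list by name though it is known for guiding neurites, was at -1.86, from 0.59 to -1.27. Arcn1, Ap1m1 and Nav2 each had 1 probe, numbered 13062, 13122 and 13228, within 1 run of consecutive probes. Copz2 (12028) and Golga1 (8395) lay outside it. The same run held the probe of Itpr2 (13134) and those of several of the lowest genes, given below. Whether place on the array plays a part in these differences was not tested.

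Among other genes with agreeing probes, Txnl1, a thioredoxin-like protein bound to the proteasome, stood out for spots that nearly coincided. Its probes differed from sham by 1.27 and 1.42 (mean 1.35, probe SD 0.11), from -0.10 in sham to 1.25 at 0 h, which is 2-fold from Pre too. Slc20a1, a phosphate importer, was at 0.09 and 1.28, a difference of 1.19 (probe SD 0.70, 2 probes), and Tcf25 was at -0.90 and 0.37, a difference of 1.27 (probe SD 0.22, 2 probes). The remaining higher ones were Kdm5c, a histone demethylase, at 1.09 (probe SD 0.82), Emp1 at 1.05 (probe SD 0.65) and Nbeal1 at 1.04 (probe SD 0.40; 0.95 with a common robust SD), and the remaining lower ones were Dennd4b at -1.29 (probe SD 0.56), Fam13b at -1.23 (probe SD 1.44) and Plin3, a lipid droplet coat protein, at -1.03 (probe SD 0.92). Of the stricter count, Lrrc58, which has 1 probe, went from 0.44 to 2.34, a difference of 1.90 or 3.74-fold. Lower members were Plaat1, a phospholipase of lipid metabolism, at -1.42, Fam219b at -1.36, the phosphatase gene Ppm1f at -1.22 and the cyclophilin gene Ppic at -1.18.

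Among the 5 most extreme differences each way, Sik1, Mt1 and Golga1, given above, were 2-fold from Pre at 0 h. In the others the distance lay mostly on the sham array. Actg2, the enteric smooth muscle actin, was lowest at -3.40, from 2.51 in sham to -0.89 at 0 h. Sertad1, a cell cycle regulator, followed at -2.56 (1.75 to -0.80), with Golga1 next. Then came Ift20, of cilium transport, at -2.27 (2.09 to -0.19), and Pgm5, of adhesion sites, at -2.17 (1.27 to -0.90). Pgm5 was not measured when values shared between probes were set to missing. At the other end, H2bc4, a histone gene, came after Sik1 at 2.35 (-1.59 to 0.75). Abhd10, a mitochondrial hydrolase, came after Mt1 at 2.22 (-2.12 to 0.10). Actg2, Sertad1, Ift20, Pgm5, H2bc4 and Abhd10 each had 1 probe, and none of them was 2-fold from Pre at 0 h. Actg2, Sertad1, Ift20 and Pgm5 had probe numbers 13226, 13149, 13088 and 13116, within 1 run of consecutive probes. H2bc4 (8989), Abhd10 (2924) and Golga1 (8395) lay outside it. Ap1m1, Nav2, Ctsz, Rps23, Arcn1 and Itpr2, given above, also had their probes in that run. Centring run by run left Actg2 at -3.41 and Pgm5 at -2.18. Whether place on the array plays a part in these differences was not tested.

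Markers of tissue and of other cell types were read as ratios, since no signal levels were given and the presence of a marker could not be checked. Of the 12 skeletal fibre markers measured (of 14), 0 were 2-fold from sham and the median was -0.05 (-0.15 with exact zeros kept). None of the 7 leukocyte markers (median 0.26, and 0.08 with a common robust SD), 10 endothelial markers (median -0.08) or 9 fibroblast markers (median -0.37) was 2-fold from sham, Ptprc, the common leukocyte antigen, being farthest at -0.91. Of the 4 nerve and Schwann cell markers 3 were below sham and 1 was past 2-fold lower, with a median of -0.70: Syt4 differed by -1.03, the clathrin coat gene Snap91 by -0.98 and the myelin gene Pmp22 by -0.42, while Uchl1 differed by 0.73. The 7 smooth muscle markers disagreed: besides Actg2, Acta2 differed by -0.85 and Cnn1 by -0.24, while Myl9 was at 1.43, from -1.18 to 0.24. Of 3 red cell markers Rhd was at 1.89, from -1.52 to 0.37, and the haemoglobin gene Hba-a1 at -0.35 (probe SD 0.75, 7 probes). In whole muscle, fewer cells of a type and less RNA per cell cannot be told apart, and the part of these cells in the differences above was not tested.

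The later arrays place the 0 h values in time, though no later sham was collected and all arrays share Pre. Ratios to Pre are given in the order 1 h, 3 h, 8 h and 24 h. Pdk4 stood at 1.80, 2.20, 2.22 and 1.70, below its 3.54 at 0 h and close to its 1.88 in sham. Mt1 stood at 0.47, 0.88, 3.16 and 3.59, and Fbxo32 at 1.02, 1.05, 2.29 and 3.01. Fbxo32 was thus below its sham value of 1.36 at 1 h and 3 h. Mt1 was below sham at 1 h and level with its sham value of 0.88 at 3 h. Both were above their 0 h values at 24 h. Klf9 followed with -0.04, -0.36, 0.61 and 0.45, below its 1.26 at 0 h throughout. Ddit4 was measured at 3 h and 8 h alone, at 0.98 and 1.02. Serpina3n stood at 0.59, 1.12, 1.96 and 1.15.

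Other high genes kept to different courses. Sik1 was at 0.81, 2.61, 1.16 and 1.06, so its highest value came at 3 h. Lrrc58 stayed high, at 1.81, 2.16, 1.54 and 1.84, and so did Txnl1, at 0.84, 1.26, 1.14 and 1.65. Plcb4 was at -0.13, -0.11, -0.32 and -0.17, Itpr2 at -0.09, -0.21, -0.25 and -0.29, and Arcn1 at 0.09, 0.23, 0.00 and 0.36. These 3 genes, each with 1 probe, had stood at 1.29, 1.00 and 1.26 at 0 h, and were between -0.32 and 0.36 on all the later arrays. Rcan1 was at 0.25, 0.77, 0.02 and -0.02.

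Lower genes also differed in course. Prkag3 was at -0.92, -1.04, -1.58 and -1.35, Aqp4 at -0.63, -0.97, -1.36 and -1.01, and Plaat1 at -0.28, -0.44, -1.43 and -1.75. These stayed below Pre on every later array. Golga1 was at 0.25, -1.25, -0.06 and -0.26, and Lrpprc at 0.08, 0.17, 0.10 and -0.28, so their 0 h values of -1.82 and -1.25 were not matched at 1 h. Abhd10, near Pre at 0 h and at -2.12 in sham, was at -1.08, -2.41, -0.34 and -1.77 later, so this gene was less than 2-fold from Pre at 0 h and 8 h and more than 2-fold below it on the other arrays.

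**Figure D5:**
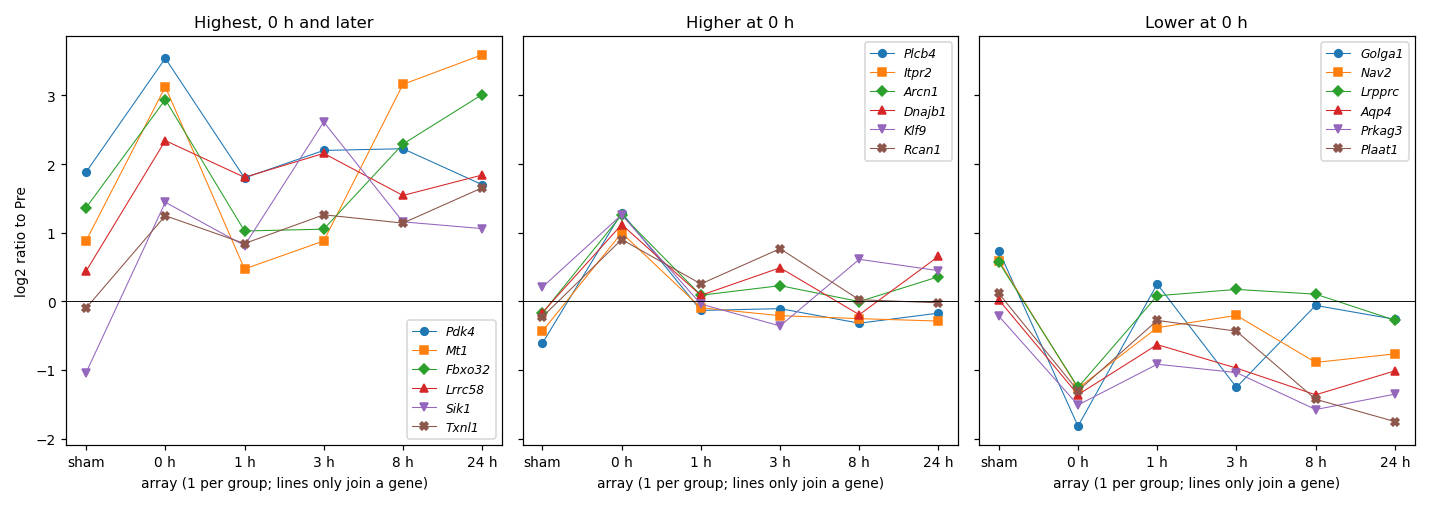
Log2 ratio to Pre on all 6 arrays (1 per group; lines only join the values of a gene) for genes high at 0 h and later, genes higher at 0 h and genes lower at 0 h. Pdk4 is highest at 0 h (3.54), Mt1 and Fbxo32 return by 24 h (3.59 and 3.01), Plcb4 and Itpr2 are near 0 after 0 h, and Prkag3 stays below Pre.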

How the data were processed

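The authors deposited log10 ratios, 1 for each of 13872 probes on each 2-colour array. How spots were scanned, corrected and normalised is not given in the sources used here. The log base was read from 97 cells holding the rounding residue 9.64e-17. Values were turned into log2 ratios, and the median of the measured probes was subtracted within each array. Empty cells (485 in sham) and exact zeros (201 in sham, 1762 at 0 h) counted as not measured, leaving 11825 probes on both arrays. The platform annotation gave 1 symbol for 6609 probes, several for 284 and none for 6979, and 6599 of the first matched RefSeq genes by Entrez ID.

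A gene was the mean of its single-symbol probes measured on both arrays, and a difference of 2-fold was called. With 1 array per group no test was made, and the number of arrays sets the precision. Named were up to 12 genes each way with agreeing probes past 2-fold, up to 10 each way 2-fold from both sham and Pre, the 5 most extreme each way, list members past 2-fold with up to 4 more per list, and markers; Sh3bgr was added after its values were seen. The members and the 42 lists were chosen with earlier results of these data known. Alternatives covered zeros, shared sham values, centring, scaling, probe summaries, annotation and threshold. Scripts used Python 3.11.15, pandas 2.3.3, numpy 2.4.6 and matplotlib 3.10.9, and were tested on simulated data.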

Additional observations from a re-analysis of the deposited data

How the results depend on the processing

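Counts of genes 2-fold from sham ran from 228 to 279 across the 9 alternatives that kept the 2-fold threshold, against 244; with quantile normalisation they were 100 higher and 132 lower, 43.1% higher against 52.5%. Scaling both arrays to a common robust SD gave 127 genes 2-fold from both sham and Pre (77 higher, 50 lower), which include all 31, and 30 genes with agreeing probes (16 higher, 14 lower), which share 16 of the 19. Quantile normalisation gave 57 genes 2-fold from both (27 higher, 30 lower; 29 shared), so the share higher was 47.4% against 64.5%. For agreeing probes it gave 44.4% higher against 57.9%. A 1.5-fold threshold gave 899 genes from sham, 198 from both and 136 with agreeing probes. Of 100 named genes, 71 were measured and 2-fold under all 9 alternatives. Another 2 (Ctsz and Pgm5) were 2-fold under all but 1. That 1 set values shared between probes to missing, and they were not measured in it. With the common SD 19 named genes were no longer 2-fold, and with quantile normalisation 14. The medians of 39 of the 42 lists kept their sign; the exceptions were proteasome, matrix (-0.03 with the common SD) and cytoskeleton (-0.02 with the median of probes). The median of 25 lists moved by over 1.5 times under at least 1 alternative. Among the named genes 0 changed sign. The cause of these changes was not tested. No paired analysis was possible because each group had 1 array, and for the same reason no replicate could be left out. The sham array also differed in form, with empty cells and 154 values shared between probes, and how it was processed is not given in the sources used here. No signals were given, so what brightness limits cannot be stated.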

Other observations

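Other gene groups held single genes past 2-fold from sham at 0 h, many of them less than 2-fold from Pre. Of 6 polyamine and one-carbon genes 4 were below sham and 2 above; their median was -0.57 and lay between -0.63 and -0.57 under the alternatives. The 1 gene past 2-fold went the other way: Sat1, the enzyme that breaks down polyamines, stood at -0.07 in sham and 0.97 at 0 h, a difference of 1.04, while the antizyme genes Oaz1 and Oaz2, which restrain polyamine synthesis, differed by -0.67 (probe SD 0.52, 2 probes) and -0.57. Among 18 insulin and growth factor genes the median was 0.03, and Grb2, an adaptor below growth factor receptors, was lowest at -1.45, from 0.58 to -0.87. Grb14, an adaptor that inhibits the insulin receptor, differed by -0.81 and stood at -1.15 against Pre. Akt1 differed by 0.89, from -1.08 to -0.19. At 1 h, 3 h, 8 h and 24 h Akt1 stood at -0.41, -1.27, -0.15 and -0.60, so the paced 3 h array was as low as sham.

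Of 44 cytoskeleton genes 2 were 2-fold higher and 0 lower. Dync1h1, the heavy chain of the dynein motor, was at 1.30, from -0.47 to 0.83. The dynein light chain gene Dynlrb1 was at 1.01, from -0.98 to 0.02 (0.81 with a common robust SD). Of 112 kinase and phosphatase genes 5 were 2-fold higher and 5 lower, with a median of 0.04. Ppp2r5d, a regulatory subunit of protein phosphatase 2A, was at 1.43, from -1.01 to 0.43, and Ppp1r1a, an inhibitor of protein phosphatase 1, at -1.21, from 1.31 to 0.10 (-0.91 with a common robust SD). The 11 hypoxia responsive genes had a median of -0.21 (-0.10 with a common robust SD), in which Ddit4 and Bnip3 were highest at 1.81 and 0.77 and Vegfa, the vascular growth factor, differed by -0.21. Of 25 antioxidant genes, Txnl1 was the 1 past 2-fold, and Txnip, which binds thioredoxin and restrains glucose uptake, was above Pre on both arrays, at 1.17 in sham and 1.06 at 0 h (difference -0.10, 2 probes that differed by -0.10 and -0.11). In the 52 matrix and adhesion genes the median was 0.09 (-0.03 with a common robust SD). Mmp19, a matrix protease, was at -1.14, from 0.78 to -0.36, lowest after Ppic.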
